A study of Mus musculus with 25 samples.

Results

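The replication-dependent histone genes were taken from the table of transcript levels by their symbols, as every gene whose mouse symbol begins with Hist1h to Hist4h and goes on to name histone H1, H2A, H2B, H3 or H4. The rule gave 70 of the 34866 genes in the table, 6 of H1, 20 of H2A, 19 of H2B, 12 of H3 and 13 of H4. Total RNA depleted of ribosomal RNA had been sequenced in 5 groups of 5 libraries from mammary organoids, the epithelium-enriched fragments left after digestion of the gland. These were cabergoline-treated multiparous mice 1 day after weaning, untreated multiparous mice 1 day after weaning, cabergoline-treated multiparous mice at 60 days, untreated multiparous mice at 60 days and untreated nulliparous mice age-matched to the 60-day animals. All 5 groups came from mice in which a Cre recombinase under the keratin 14 promoter removes Brca1 and P53, in part of the cells only. Multiparous mice had been through 2 pregnancies, and treated mice received a single dose of the dopamine receptor agonist cabergoline (0.2 mg/kg in the labels) on the day of the second weaning. The 60-day mice were another set of animals than the 1-day mice, so time and set cannot be told apart.

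Histones are the proteins around which DNA is wound: H2A, H2B, H3 and H4 form the core of the nucleosome, and H1 binds the linker DNA between nucleosomes. The replication-dependent genes supply them while DNA is copied, so their mRNAs rise in S phase and are degraded at its end. Typically these mRNAs carry no poly(A) tail but end in a stem-loop bound by the stem-loop binding protein Slbp. In that form they are retained in RNA depleted of ribosomal RNA and lost when poly(A) RNA is selected. Mki67, the gene of the proliferation antigen Ki-67, is transcribed in cycling cells and was followed beside them. Its transcript is polyadenylated.

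In the GENCODE annotation of GRCm38, 56 of the 70 genes lay on chromosome 13, 10 on chromosome 3, 3 on chromosome 11 and 1 on chromosome 6. Of the 70, 67 were annotated as protein coding and the others, Hist1h2al, Hist1h2aj and Hist3h2bb-ps, as pseudogenes. Single-exon transcripts only were annotated for 65 of the 70. The 16-base stem-loop was found in the annotated transcripts of 46 genes, in 8 forms, and in all 8 the outer 6 bases on either side could pair with each other. The forms are shown because the loop is what sets these mRNAs apart from other mRNAs, and the stem-loop itself is in capitals, flanked by 5 bases of the transcript on each side. The form of Hist1h1c was shared by 26 genes of H1, H2A, H2B and H3, that of Hist1h4h by 7 genes, all H4, that of Hist1h2bk by 6 genes of H1, H2B and H3, and those of Hist1h4i and Hist1h4j by 2 H4 genes each.
Hist1h1c: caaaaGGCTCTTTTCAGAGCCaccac
Hist1h4h: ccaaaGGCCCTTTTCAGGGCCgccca
Hist1h2bk: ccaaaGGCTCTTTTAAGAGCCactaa
Hist1h4i: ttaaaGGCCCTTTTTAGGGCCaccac
Hist1h4j: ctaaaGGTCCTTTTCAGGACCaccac
The other 24 genes had no stem-loop in their transcript models. In 23 genes the model ran at least 100 bases past the loop, for instance 840 bases in Hist1h1c, 1153 bases in Hist1h1e and 454 bases in Hist1h4c, and in the other 23 it ended sooner, after 31 bases in Hist1h4n.

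Many H2A and H2B genes lie head to head: there were 14 pairs on opposite strands with starts under 500 bases apart, each of an H2A and an H2B gene. The stretch between Hist1h2ah and Hist1h2bk is shown as an example, with the promoters of Hist1h1b and Hist1h4n, the genes of highest level in the H1 and H4 classes. Each is the 250 bases before the RefSeq start on GRCm38.p6. Capitals mark the strings of the TATA box TATAAA, the CCAAT box CCAAT, the octamer ATTTGCAT and the H1 box AAACACA. Each was searched for on its own, at any position and on both strands, so that matches could overlap. A match is not shown to work as an element of the gene named. The stretches are chr13:22035571-22035820 (plus strand) for Hist1h2bk, chr13:21780626-21780875 (minus strand) for Hist1h1b and chr13:21832198-21832447 (minus strand) for Hist1h4n.
Hist1h2bk: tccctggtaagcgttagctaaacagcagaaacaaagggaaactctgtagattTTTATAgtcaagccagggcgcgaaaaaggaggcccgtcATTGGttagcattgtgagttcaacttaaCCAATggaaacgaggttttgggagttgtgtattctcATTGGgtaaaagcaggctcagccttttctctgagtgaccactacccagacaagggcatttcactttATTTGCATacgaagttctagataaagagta
Hist1h1b: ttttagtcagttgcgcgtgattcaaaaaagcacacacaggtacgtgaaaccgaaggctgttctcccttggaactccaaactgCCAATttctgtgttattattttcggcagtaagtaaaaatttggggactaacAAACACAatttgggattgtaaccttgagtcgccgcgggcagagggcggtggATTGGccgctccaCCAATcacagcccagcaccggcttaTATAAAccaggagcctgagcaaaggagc
Hist1h4n: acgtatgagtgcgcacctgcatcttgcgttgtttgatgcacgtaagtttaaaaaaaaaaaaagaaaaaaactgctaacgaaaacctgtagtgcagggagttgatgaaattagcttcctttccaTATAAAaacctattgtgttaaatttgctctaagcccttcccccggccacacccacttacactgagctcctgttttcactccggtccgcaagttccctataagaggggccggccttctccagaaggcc
Promoters of 61 genes (250 bases before to 50 after the start) could be searched. CCAAT was present in all H1, H2A, H2B and H3 promoters but in 3 of 12 H4 promoters (25%), against 37.9% of 27025 promoters of all genes. TATAAA was present in 57.4% of the histone promoters and 14.2% of all promoters. The octamer was found in 41.2% of H2A and 37.5% of H2B promoters, in none of the H1, H3 or H4 promoters and in 1.75% of all promoters, and the H1 box in 83.3% of H1 promoters and 7.14% of all.

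Values are TPM (a gene's length-adjusted share of all transcripts in a library, summing to the same total in each) as the authors deposited them, which keep no read counts, so the depth behind a value is unknown. The histone genes are also close copies of one another. The median gene had 39% of its 31-base stretches to itself, 43 of 70 had under 50% and 5 had none, so the division of reads between single genes is uncertain. Part of the sharing was with genes outside the 70, which sums over a class do not remove: all 31-base stretches of Hist2h2bb and Hist2h3b, and 53.4% of those of Hist1h2ai, also occurred in such genes. Hist1h2ao and Hist1h2ap, H2A genes that share most of their sequence, are an example: cabergoline-treated libraries 3 and 4 at 60 days listed 51.4 and 66.9 TPM for Hist1h2ao and under 0.01 TPM for Hist1h2ap, while library 2 of the same group listed 0 and 143 TPM.

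Several libraries stood apart before any comparison. Between 11764 and 16570 genes reached 1 TPM in the 1-day libraries and between 14469 and 18678 in the 60-day set. Cabergoline-treated library 4 at 60 days listed 20 of the 54 histone genes with a mean of at least 5 TPM at 0, and untreated library 2 at 60 days listed 11, against 0 to 2 in the other 23 libraries. These zeros were not particular to histones: among other genes of that mean level with transcripts under 1000 bases, 43.3% and 36.4% were listed at 0 in those libraries, against 1.43% to 17.6% in the other 23. Epithelial genes, the cells the organoids are meant to enrich, varied as widely: Epcam, an epithelial adhesion molecule, ranged from 2.09 to 17.4 TPM in cabergoline-treated and 1.72 to 112 TPM in untreated multiparous mice at 60 days, and from 11.3 to 110 TPM in nulliparous mice. The summed level of 13 T cell genes ranged from 7.65 to 1689 TPM at 1 day and from 56.2 to 4150 TPM in the 60-day set. In such bulk samples, fewer cells of a type and less RNA per cell cannot be told apart.

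The summed level of the 70 histone genes differed about as much within groups as between them. At 1 day it was 477, 2245, 706, 2459 and 4185 TPM in cabergoline-treated libraries 1 to 5 and 583, 2172, 4937, 377 and 469 TPM in untreated libraries 1 to 5. At 60 days it was 9468, 6917, 1994, 1284 and 5706 TPM in cabergoline-treated libraries, 6835, 2124, 970, 3482 and 10638 TPM in untreated multiparous libraries and 958, 6603, 8010, 3179 and 8415 TPM in nulliparous libraries. Each group thus spanned a wide range, and at either time the groups overlapped.

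Mki67 also varied widely within groups. Its level was 0.368, 3.84, 1.64, 5.36 and 8.97 TPM in cabergoline-treated and 0.869, 5.48, 13.7, 0.41 and 1.09 TPM in untreated libraries at 1 day. At 60 days it was 23.2, 23.6, 3.46, 11.8 and 23.5 TPM in cabergoline-treated, 24.8, 25.6, 2.72, 10.6 and 25.8 TPM in untreated multiparous and 7.08, 21.9, 48.2, 12.7 and 35.7 TPM in nulliparous libraries. The libraries low in Mki67 were largely those low in histone transcripts, with the clearest exception in untreated library 2 at 60 days, where Mki67 was high and the histone sum was low.

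**Figure D1:**
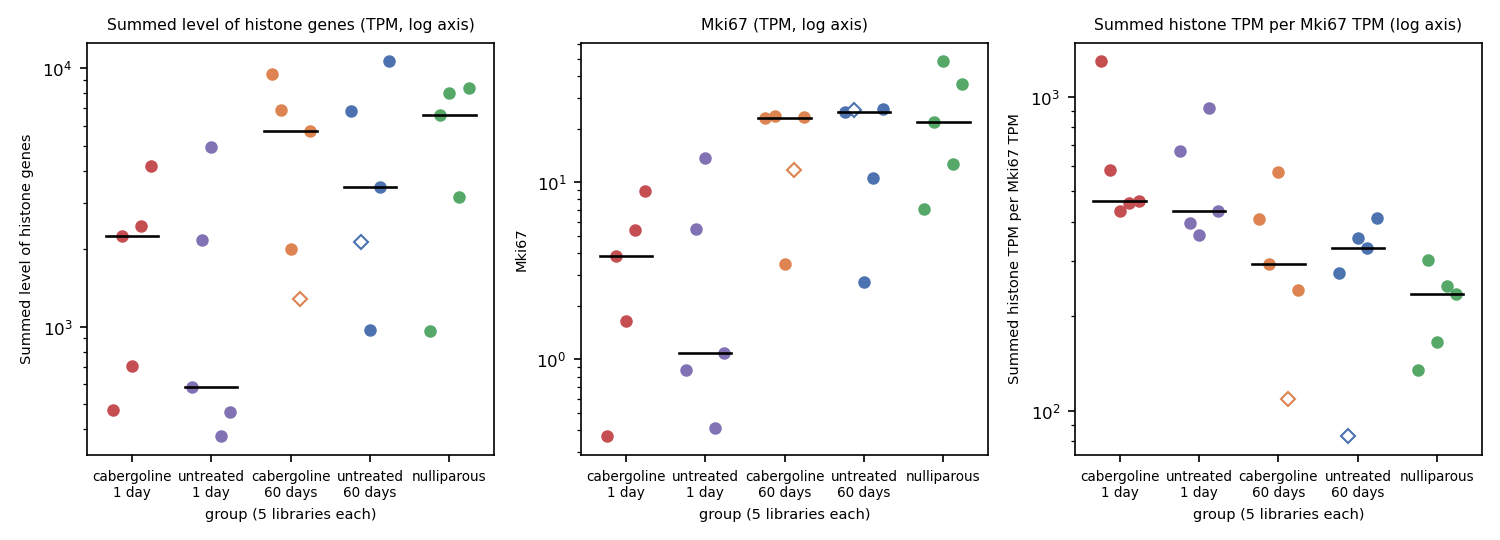
Summed TPM of the 70 histone genes (left), Mki67 TPM (middle) and their ratio (right), on log axes, with 1 point per library and a line at the median of the 5 libraries of each group. Open diamonds mark the 2 libraries that listed many histone genes at 0, whose ratios of 109 and 83 are the lowest of the 25.

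Each class was led by few genes, and the 10 genes of highest level held 54.4% of the summed TPM. H4 genes held 28.2% of it, H2A genes 27%, H3 genes 26.3%, H2B genes 14.3% and H1 genes 4.3%. A cluster of 24 genes on chromosome 13 (chr13:21715763.0-22043676.0) held 54.8%. The genes next in scaled level in each class were Hist1h1c and Hist1h1e (means of 36.6 and 22.6 TPM), Hist1h2ak and Hist1h2ah (164 and 168 TPM), Hist1h2bq and Hist1h2bk (108 and 74.7 TPM), Hist1h3h and Hist2h3b (214 and 196 TPM), and Hist1h4h and Hist1h4k (151 and 156 TPM).

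Hist1h4n, an H4 gene (chr13:21831767-21832196), had the highest level, with 12.5% of its 31-base stretches to itself. It was listed at 69.2, 263, 89.9, 263 and 378 TPM in cabergoline-treated and 73.9, 190, 439, 55.4 and 66.4 TPM in untreated libraries at 1 day. At 60 days it had 948, 821, 199, 87.4 and 689 TPM in cabergoline-treated, 536, 271, 129, 364 and 1016 TPM in untreated multiparous and 84.6, 799, 816, 294 and 888 TPM in nulliparous libraries. It followed the summed level, with the same high and low libraries in every group.

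Hist1h3i, the leading H3 gene (chr13:21782960-21783370), had 7.77, 100.4, 23.3, 114 and 211 TPM in cabergoline-treated and 15.1, 124, 277, 6.6 and 11 TPM in untreated libraries at 1 day. Hist1h2ai, the leading H2A gene (chr13:21716422-21716814), had 9.13, 79.5, 20.5, 91.5 and 177 TPM in cabergoline-treated and 16.3, 108, 238, 7.79 and 7.56 TPM in untreated libraries at that time. Both were therefore low in cabergoline-treated libraries 1 and 3 and untreated libraries 1, 4 and 5. Hist1h3i had 6.8% and Hist1h2ai 8.0% of their 31-base stretches to themselves. At 60 days Hist1h2ai was listed at 747, 537, 110, 0 and 336 TPM in cabergoline-treated, 351, 0, 34.3, 193 and 658 TPM in untreated multiparous and 57.9, 423, 430, 220 and 459 TPM in nulliparous libraries, with its zeros in the 2 libraries named above.

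The leading H2B gene was Hist2h2bb (chr3:96269752-96270132), with a mean of 164 TPM over the 25 libraries, although none of its 31-base stretches was its own. Hist1h1b (chr13:21779883-21780625), the leading linker histone gene, had 96.1% of its stretches to itself. It ranged from 0.946 to 56.5 TPM in cabergoline-treated and 1.02 to 75.4 TPM in untreated libraries at 1 day, and from 18.6 to 194 TPM in cabergoline-treated, 7.09 to 195 TPM in untreated multiparous and 15.3 to 172 TPM in nulliparous libraries of the 60-day set. At the low end, Hist1h2ba was listed at 0 in all 25 libraries, and 62 of the 70 genes had a mean of at least 1 TPM.

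**Figure D2:**
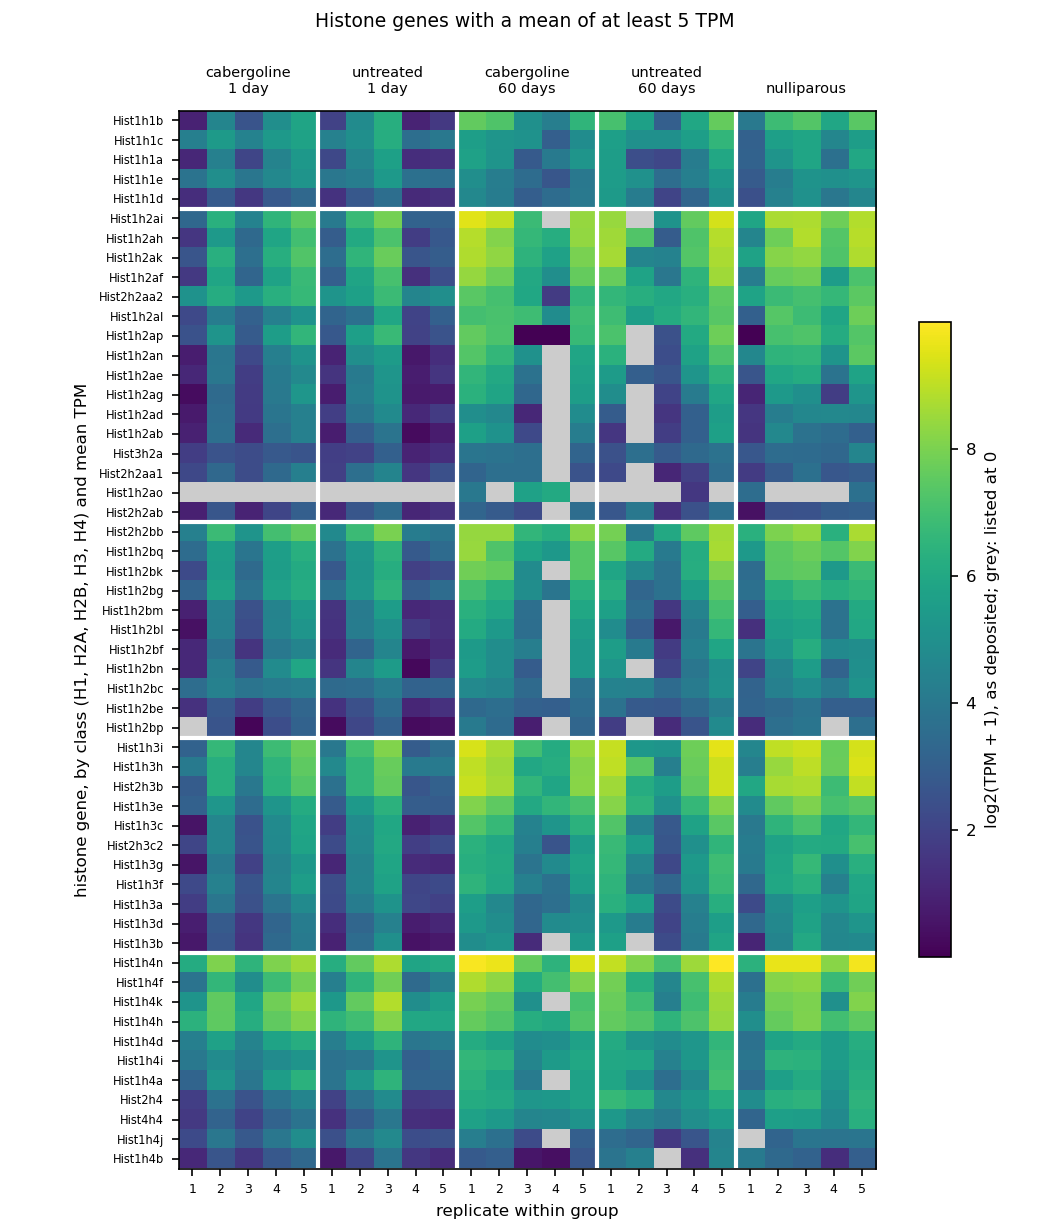
Levels, as log2(TPM + 1) of the deposited values, of the 54 histone genes with a mean of at least 5 TPM (rows, by class) in the 25 libraries (columns, by group and replicate), with genes listed at 0 in grey. Most rows brighten and darken in the same columns, and the grey cells gather in cabergoline-treated library 4 (20 genes) and untreated library 2 (11 genes) at 60 days.

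The relation to Mki67 was examined across the 15 libraries of the 60-day set, after each value was scaled, put on the log2 scale and centred on its group mean. Values were permuted across the 15 libraries without regard to group, so the permutation p-values may be somewhat too small. Hist1h1b followed Mki67 (Pearson's r = 0.82, permutation p = 0.00035, adjusted p = 0.00175; Spearman's rho = 0.81, permutation p = 0.00036, adjusted p = 0.0018; two-sided, 100000 resamples, adjusted over 5 genes). Hist1h4n did too (r = 0.71, permutation p = 0.00295, adjusted 0.00737; rho = 0.74, permutation p = 0.00221, adjusted 0.00552), as did Hist1h3i (r = 0.63, permutation p = 0.0127, adjusted 0.0212; rho = 0.68, permutation p = 0.00702, adjusted 0.0117). For Hist2h2bb (r = 0.41, permutation p = 0.13, adjusted 0.163; rho = 0.55, permutation p = 0.0368, adjusted 0.037) and Hist1h2ai (r = 0.23, permutation p = 0.412, adjusted 0.412; rho = 0.55, permutation p = 0.037, adjusted 0.037) the rank correlation passed the threshold of 0.05 and Pearson's r did not. Without the 2 libraries farthest from the median of Mki67, untreated and cabergoline-treated libraries 3 at 60 days, r was 0.75 for Hist1h1b, 0.70 for Hist1h4n, 0.57 for Hist1h3i, 0.35 for Hist2h2bb and 0.29 for Hist1h2ai.

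The difference between genes rested on the libraries that list many histone genes at 0. Without them, in 13 libraries and as a choice made after the values were seen, r with Mki67 was 0.92 for Hist1h1b, 0.90 for Hist1h4n, 0.87 for Hist1h3i, 0.92 for Hist2h2bb and 0.91 for Hist1h2ai. The summed level of all 70 genes had r = 0.76 and rho = 0.82 with Mki67 over 15 libraries, and r = 0.93 and rho = 0.91 over 13. Of the 54 genes with a mean of at least 5 TPM, 40 (74.1%) had an r above 0.5 over 15 libraries and 50 (92.6%) over 13, against 15.5% and 27.4% of the 13130 genes of that mean level in the whole table. The points share their libraries and scaling, and these counts are descriptions. T cell genes summed to 491 and 168 TPM in cabergoline-treated and untreated libraries 3, where Mki67 was lowest. They summed to 3224 to 4150 TPM in cabergoline-treated libraries 1, 2 and 5 and untreated libraries 1 and 5. Untreated library 2 and nulliparous library 5 had 59.7 and 526 TPM although Mki67 was high. Mitochondrial genes held 39.8% of TPM in nulliparous library 1 and 23.8% in untreated library 3. The part of cell content in these correlations was not tested. Among the 54 genes, Hist1h3d (H3, r = 0.89), Hist1h1d (H1, r = 0.88) and Hist1h4i (H4, r = 0.86) were highest over 15 libraries. Hist3h2a (H2A, r = 0.12) and Hist1h2ao (H2A, r = -0.41) were lowest among them. Hist2h3c1 (H3), whose mean of 3.88 TPM is below that level, had r = -0.49.

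**Figure D3:**
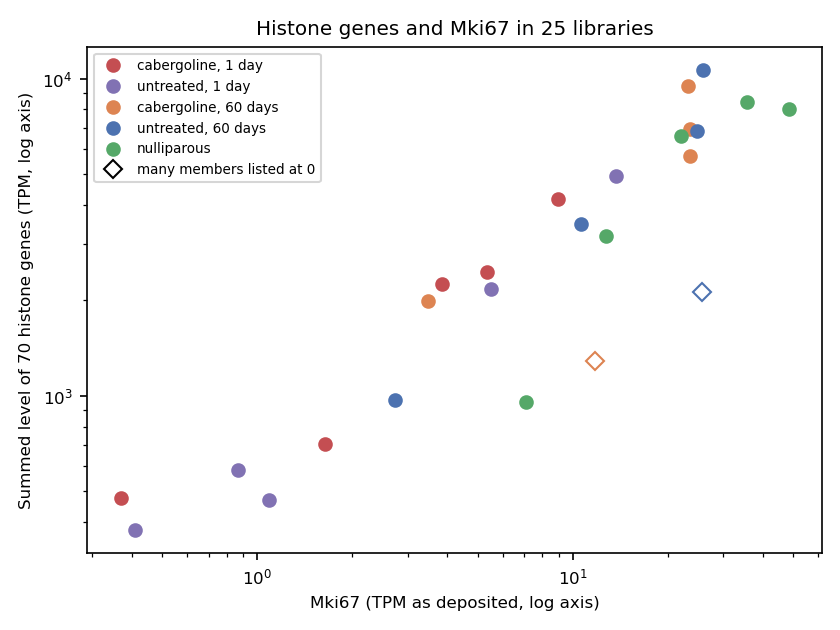
Summed TPM of the 70 histone genes against Mki67 TPM, both on log axes, with 1 point per library coloured by group. On the deposited scale the libraries climb together from 377 TPM of histone transcripts to 10638 TPM. The 2 libraries drawn as open diamonds lie below the others of like Mki67. After scaling to the median ratio of genes, the sums were 1325 to 5713 TPM at 1 day and 743 to 6368 TPM in the 60-day set. The place of the 1-day points below the 60-day points thus depends on the scale.

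At 1 day the libraries fell into separate clusters of 5, so no correlation over all 10 is given. Cabergoline-treated libraries 1 and 3 and untreated libraries 1, 4 and 5 had summed histone levels of 377 to 706 TPM and Mki67 of 0.368 to 1.64 TPM. The other 5 had 2172 to 4937 TPM and 3.84 to 13.7 TPM. These sets of 5 were drawn by a cut at 5 TPM of Trac, the constant part of the T cell receptor alpha chain. Their difference in Trac therefore follows from the cut: the first 5 had 0.116 to 3.03 TPM and the other 5 had 69.2 to 230.2 TPM. The sum of all 13 T cell genes, Trac among them, was 7.65 to 31.8 TPM in the first 5 and 525 to 1689 TPM in the other 5. Both clusters hold libraries of either treatment. What part T cells have in the histone levels was not tested.

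At 1 day cabergoline-treated and untreated mice were compared to ask whether the drug altered these genes early in involution. None of the 58 histone genes tested passed an adjusted p of 0.05 (limma, Benjamini-Hochberg over all 14733 genes), against 0% of all genes, and 1 had an unadjusted p up to 0.05. It was Hist1h4i (H4), with 15.2, 27.4, 17.2, 27.4 and 35.5 TPM in cabergoline-treated against 12.5, 14.8, 35.2, 7.39 and 9.73 TPM in untreated libraries, groups that overlap (log2 fold change 0.36, SE 0.15, limma adjusted p = 1). The median log2 fold change was 0.19 for the histone genes, 48 of them positive, and 0.02 for all genes, with a median SE of 0.55 for the histone genes. Leaving out single libraries moved the histone median between -0.09 and 0.48, with a negative sign without untreated library 4 (-0.02) or cabergoline-treated library 5 (-0.09). It was 0.52 with TPM as deposited (all genes 0.33) and 0.98 with library quality weights, under which 39 of the 58 genes had an unadjusted p up to 0.05 and 0 were called. The share of all genes at that p under the weights is not given, so the 39 are not shown to be particular to histones. In the scaled fit without weights 14 of 15 epithelial genes (median 0.87) and 12 of 13 T cell genes (median 0.60) had positive values. Their part in the histone values was not tested. Mki67 differed by 0.01 (SE 0.51, limma adjusted p = 1).

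At 60 days the comparison of cabergoline-treated with untreated multiparous mice asked whether an effect of the drug lasted. None of 60 histone genes was called by limma, against 0% of 17644 genes, and none had an unadjusted p up to 0.05. The median log2 fold change was -0.01 (all genes -0.02), with 30 genes positive and 30 negative, and the median SE was 0.81. Leaving out single libraries moved the histone median between -0.35 (without untreated library 3) and 0.40 (without cabergoline-treated library 4), it was 0.16 without both libraries that list many histone genes at 0, and it was 0.69 with library quality weights. All 13 T cell genes had positive values in this comparison (median 1.29), and their part was not tested. The smallest p belonged to the linker histone gene Hist1h1e, with 29.3, 17.9, 10.4, 5.46 and 15.1 TPM in cabergoline-treated against 45.4, 32.3, 11, 18.9 and 39.2 TPM in untreated multiparous libraries (log2 fold change -0.99, SE 0.45, limma adjusted p = 1), again with overlap. Mki67 had a log2 fold change of -0.08 (SE 0.63, limma adjusted p = 1).

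Both multiparous groups were compared with nulliparous mice to see whether past pregnancies left a difference. In untreated multiparous against nulliparous mice 0 of 61 histone genes were called by limma (0% of 17960 genes), none at an unadjusted p up to 0.05, with a median log2 fold change of -0.18 (all genes -0.03). In cabergoline-treated against nulliparous mice 0 of 62 were called (0% of 18077 genes), again none at an unadjusted p up to 0.05, with a median of -0.17 (all genes -0.05). These comparisons share the nulliparous libraries. The sign of both medians rested on single libraries. The first was 0.23 without untreated multiparous library 3 and 0.03 without library 2, but -0.55 without nulliparous library 1, -0.59 without untreated multiparous library 5 and -0.76 with library quality weights, under which 7 genes had an unadjusted p up to 0.05. The matching share of all genes is not given, so the 7 are not shown to be particular to histones. The second was 0.20 without cabergoline-treated library 4, which lists 20 histone genes at 0, 0.03 without cabergoline-treated library 3 and 0.02 without nulliparous library 3, but -0.53 without cabergoline-treated library 1. All 15 epithelial genes tested had negative values in both comparisons (medians -2.70 and -2.80, with 3 and 14 at an unadjusted p up to 0.05 and none called), and the T cell genes had medians of 0.37 (11 of 13 positive) and 1.80 (13 of 13 positive). The part of these cell types in the histone values was not tested. Hist1h4c, an H4 gene (log2 fold change 0.73, SE 0.36), and Hist1h1c, a linker histone gene (0.75, SE 0.43), had the smallest p values in the first, and Hist1h2ac, an H2A gene (-0.60, SE 0.30), and Hist1h4b, an H4 gene (-1.10, SE 0.69), in the second, all with a limma adjusted p of 0.89 or above. Mki67 had log2 fold changes of -0.40 (SE 0.57) and -0.48 (SE 0.53).

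**Figure D4:**
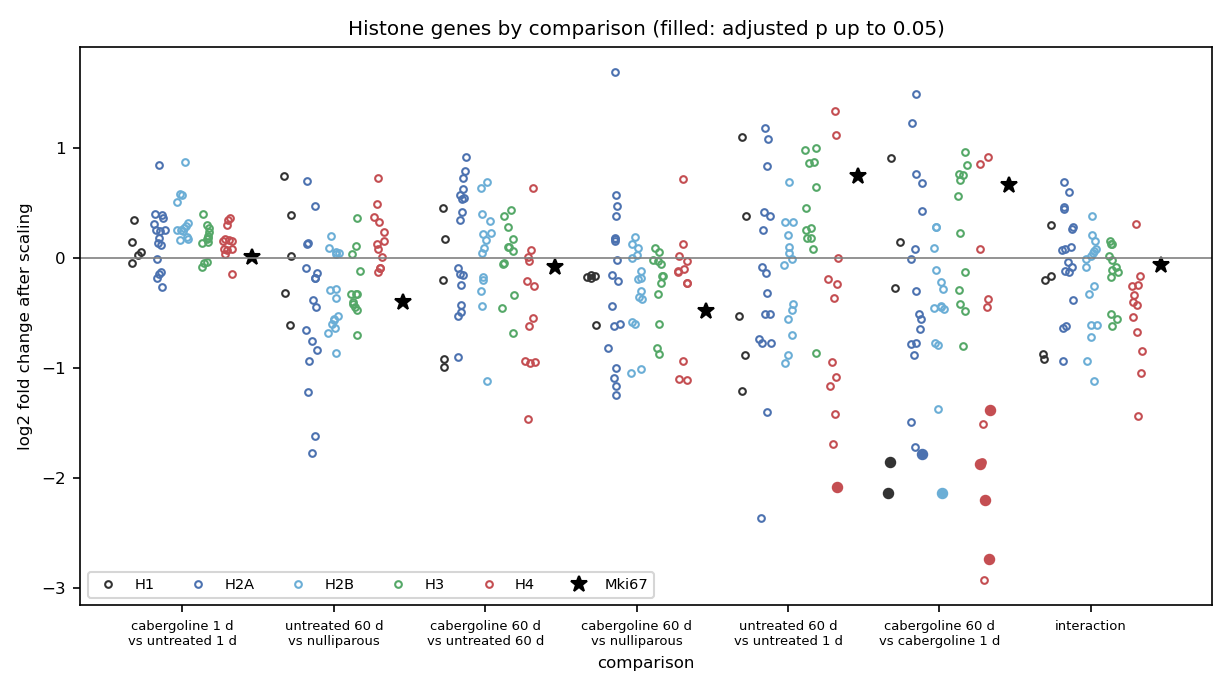
Log2 fold changes after scaling (vertical axis) of the histone genes tested in each of the 7 comparisons (horizontal axis), coloured by class, with filled points at an adjusted p up to 0.05 and a star for Mki67. Filled points appear in the comparisons of 60 days with 1 day only, 1 in untreated and 8 in cabergoline-treated mice, all below 0 while Mki67 lies above 0.

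Between 60 days and 1 day the direction of the histone genes depended on the scale. Gm12895, a predicted gene, took 0% to 10.5% of all TPM in the 60-day set and 28% to 56.8% in the 1-day libraries, and TPM sum to the same total in each library. The 10 milk protein genes summed to 208 to 57913 TPM in the 60-day set, where untreated library 2 alone exceeded 3245 TPM, and to 2186 to 348329 TPM in the 1-day libraries. Over all genes the median log2 difference of 60 days minus 1 day was 1.42 in cabergoline-treated and 1.61 in untreated mice as deposited, and 0.08 and 0.12 after scaling to the median ratio of genes. The summed histone level was higher at 60 days by 1.39 (pooled SD 1.28) in cabergoline-treated and by 1.78 (pooled SD 1.49) in untreated mice on the log2 scale as deposited, and the difference was -0.19 and -0.12 after scaling. Changes are therefore given relative to the median of genes. The ratio of the histone sum to Mki67 within a library does not depend on scaling. Its log2 difference of 60 days minus 1 day was -1.05 (pooled SD 0.79) in cabergoline-treated and -1.02 (pooled SD 0.77) in untreated mice. The ranges of the ratio overlapped in either treatment. Its lowest values were in the 60-day libraries that list many histone genes at 0, and Mki67 was low at 1 day. Mki67 was not called after scaling, but it was with TPM as deposited, in cabergoline-treated (log2 fold change 1.91, limma adjusted p = 0.0141) and untreated mice (2.11, limma adjusted p = 0.0233), and in untreated mice also with library quality weights (1.08, limma adjusted p = 0.0447).

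In cabergoline-treated mice 8 of 60 histone genes (13.3%) were lower at 60 days than at 1 day after scaling, against 12.2% of all 16457 genes, and none was higher, against 9.14%. The share that was lower is thus close to that of all genes. They were 4 of 12 H4 genes, 2 of 5 H1 genes, 1 of 17 H2A genes, 1 of 14 H2B genes and 0 of 12 H3 genes, and the median log2 fold change was -1.44 for H4, -0.27 for H1, -0.51 for H2A, -0.44 for H2B and 0.40 for H3.

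Hist1h4c (H4, chr13:23697635-23698454) was listed at 4.18, 3.24, 0.525, 0 and 2.04 TPM at 60 days against 3.13, 6.89, 4.25, 9 and 16.7 TPM at 1 day (log2 fold change -2.73, SE 0.38, limma adjusted p = 0.00104), and it was also lower with TPM as deposited. Hist1h1e (H1) had 29.3, 17.9, 10.4, 5.46 and 15.1 TPM at 60 days against 13.2, 29.9, 14.2, 24.2 and 35.4 TPM at 1 day (-2.13, SE 0.34, limma adjusted p = 0.00207), and its deposited values overlap. Hist1h4h (H4, the gene whose loop is shown above) had 197, 154, 73, 64.3 and 155 TPM at 60 days against 85.5, 183, 72.8, 188 and 272 TPM at 1 day (-1.87, SE 0.33, limma adjusted p = 0.00357). Hist1h1c (H1) had 47.4, 35.7, 33.5, 7.21 and 28.1 TPM at 60 days against 19.1, 43, 20.8, 39.8 and 53.1 TPM at 1 day (-1.85, SE 0.39, limma adjusted p = 0.00909). Of these, Hist1h4c alone was called on the deposited scale, where the groups overlap as well.

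The other 4 were Hist1h4d (H4, -1.38), Hist1h4j (H4, -2.20), Hist1h2bc (H2B, -2.14) and Hist2h2aa1 (H2A, -1.78), with limma adjusted p values from 0.00794 to 0.041. The calls of Hist1h4j, Hist1h2bc and Hist2h2aa1 were lost at a pseudocount of 0.1, and 5 histone genes were called lower without library 5 at 60 days or without library 2, 3 or 4 at 1 day. Each of these 3 genes was listed at 0 in cabergoline-treated library 4 at 60 days. Hist1h4d had a log2 fold change of 0.19 with TPM as deposited, so its direction depends on the scaling. Of the 8 genes, 5 have transcript models that run at least 100 bases past the stem-loop, among 22 such genes tested, 2 have shorter models, among 19, and Hist1h2bc has no loop in its model, among 19.

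In untreated mice 1 of 59 histone genes (1.69%) was lower at 60 days than at 1 day, against 0.883% of all 16312 genes, and none was higher, against 0.325%. It was again Hist1h4c, with 3.41, 4.33, 2.84, 3.23 and 4.4 TPM at 60 days against 4.44, 7.48, 17.2, 3.3 and 3.46 TPM at 1 day (log2 fold change -2.08, SE 0.20, limma adjusted p = 0.0016). Its deposited values overlap, and the call was lost with TPM as deposited (-0.59, limma adjusted p = 0.225) and with the replicate number as a block (limma adjusted p = 0.0818), which left 0 histone genes lower. Without untreated library 5 at 60 days, 7 histone genes were called lower, and with library quality weights 10 were lower and 18 higher. The shares of all genes called in those runs are not given beside these counts, so the counts are not shown to be particular to histones. The median log2 fold change was -0.66 for H4 and 0.36 for H3.

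The difference between the 2 changes with time was itself tested. None of 62 histone genes was called for the interaction of cabergoline and time by limma (0% of 18232 genes), and none had an unadjusted p up to 0.05. The smallest p was that of Hist1h1e (-0.87, SE 0.46, limma adjusted p = 1), so the larger number of calls in cabergoline-treated mice is not shown to be a difference between treatments.

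The shares of the classes within a library do not depend on scaling between libraries. H4 genes held 23.6% to 32.4% of the histone TPM in cabergoline-treated mice at 60 days against 36.5% to 54.1% at 1 day, groups that do not overlap. In untreated mice the ranges were 22.3% to 41.5% at 60 days against 33.4% to 53% at 1 day, which overlap. Nulliparous libraries lay between 23.5% and 28.1%. H3 genes held 22.1% to 32.8% at 60 days against 10.8% to 21% at 1 day in cabergoline-treated mice, which do not overlap, and 17.6% to 34.7% at 60 days against 12.5% to 22.5% at 1 day in untreated mice, which do. Without the 2 libraries that list many histone genes at 0, the highest H4 share of the 60-day set was 37.7%. Within the 1-day libraries the H4 share was 46% to 54.1% in the 5 libraries low in histones, Mki67 and Trac and 33.4% to 39.8% in the other 5. Hist1h4h alone held 10.3% to 17.9% of the histone TPM in the first 5, 5.52% to 8.17% in the other 5 and 2.08% to 9.19% in the 60-day set.

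**Figure D5:**
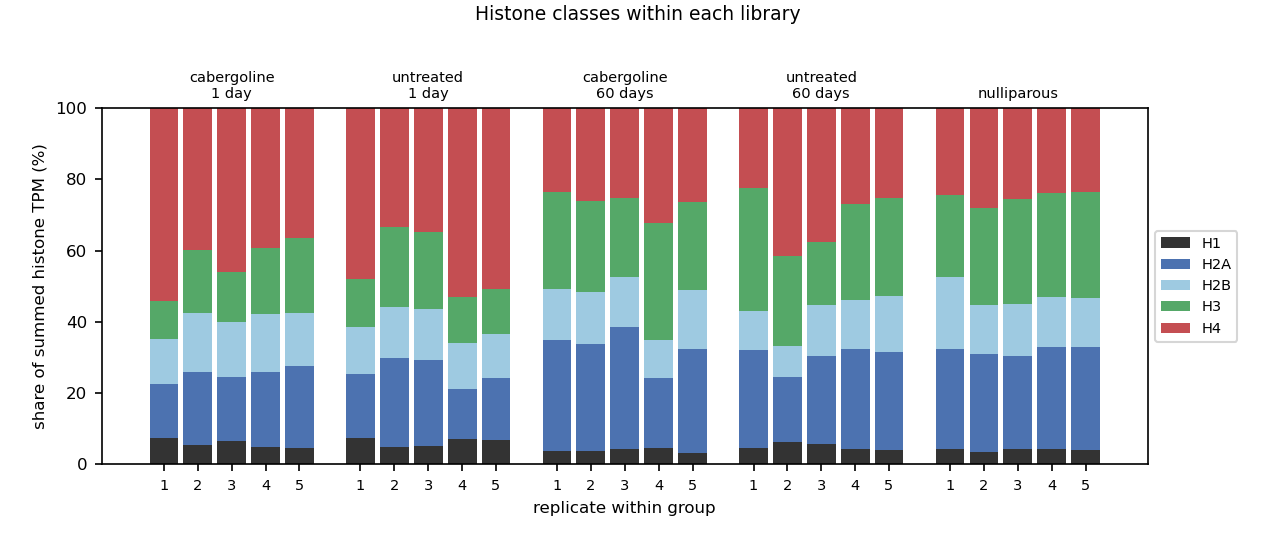
Share of the summed histone TPM held by each class (stacked bars, 100% per library) in the 25 libraries, by group and replicate. The H4 part spans 33.4% to 54.1% at 1 day and 22.3% to 41.5% in the 60-day set.

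Other genes of histone supply and the cell cycle were listed beside them. In cabergoline-treated mice at 60 days against 1 day, where 9.14% of all genes were higher and 12.2% lower, 5 of 24 genes of S phase and DNA replication were higher and none lower, among them Mcm3, a subunit of the replicative helicase (mean 68.3 against 7.75 TPM, log2 fold change 1.84, SE 0.42, limma adjusted p = 0.0124), and Tyms, thymidylate synthase (0.69, SE 0.16, limma adjusted p = 0.0132). Of 24 genes of G2 and mitosis 2 were higher, Foxm1, a transcription factor of G2 genes (1.70), and Prc1, a spindle midzone protein (1.20), and 0 were lower, a share close to that of all genes. Of 21 genes of histone mRNA transcription, processing and decay none was called, and 6 had an unadjusted p up to 0.05, against 37.7% of all genes. Srrt, Sympk and Cpsf3, the 3 of highest level, had log2 fold changes of 0.47, 0.18 and 0.11. Slbp, added after its values were seen, had 0.60 (SE 0.20, limma adjusted p = 0.0593) and so added Npat, the coactivator of histone genes, had -0.13 (SE 0.30). Mki67 itself, at 0.67 (SE 0.57, limma adjusted p = 0.413), was not called. All 15 epithelial genes and all 10 milk protein genes tested were lower at 60 days in this comparison, while 13 of 13 T cell genes had positive values, none was called and 3 had an unadjusted p up to 0.05. The part of these cell types in the histone values was not tested.

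Among histones made independently of replication, the centromeric H3 variant Cenpa (1.69, SE 0.43, limma adjusted p = 0.0206) and the H2A variant H2afz were higher, and the H2A variant H2afj (-1.29, SE 0.35, limma adjusted p = 0.028) was lower, in cabergoline-treated mice at 60 days against 1 day, with 10 variants tested. The chaperones Rbbp7 (0.88, SE 0.13, limma adjusted p = 0.00144), which binds histone H4, and Hjurp (1.12, SE 0.26, limma adjusted p = 0.013), the chaperone of Cenpa, were higher, of 14 tested. Of all genes, 9.14% were higher and 12.2% lower in that comparison. In untreated mice at 60 days against 1 day, 0 genes of the S phase, mitosis, histone processing, chaperone and variant lists were called by limma, and 0 of 24, 0 of 24, 2 of 21, 4 of 14 and 1 of 10 had an unadjusted p up to 0.05, against 20.4% of all genes.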

How the data were processed

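Total RNA of 25 libraries had been depleted of ribosomal RNA, sequenced and quantified by the authors with Salmon on GRCm38, and the table was deposited as TPM per gene. Read counts were not used here, so depth is unknown. TPM were divided by median-of-ratios factors, and log2(TPM + 1) was fitted, for genes that reached 1 TPM in 5 or more libraries of the comparison, with limma 3.58.1 (trend, R 4.3.3), with Benjamini-Hochberg adjustment over all genes and a threshold of 0.05. Fold changes of low genes are understated on this scale. The count test of the study needs counts, so limma was used in its place. Groups came from the labels, and p-values measure the spread between these samples. The histone genes and lists were chosen with earlier results of these data known. Named were the 3 genes of highest level per class, genes called (up to 8 per comparison), the 2 of smallest p where none was called, and Mki67. In other lists, up to 4 called genes or the 3 of highest level were eligible. Scripts were tested on simulated data. Stem-loops and shared 31-base stretches were read from GENCODE transcripts, and promoters from RefSeq.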

Additional observations from a re-analysis of the deposited data

Results flagged for a closer look

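Of 90 sets of 5 libraries examined for a value far from the rest, 2 had one, where chance gives about 1 in 20. Cabergoline-treated library 1 at 1 day had 1295 TPM of histone transcripts per TPM of Mki67, and the next highest library of its group had 585. Its Mki67 level, 0.368 TPM, was the lowest of the 25. Nulliparous library 1 drew 20.3% of its histone TPM from H2B genes, and the next highest nulliparous library 14.5%.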

How the results depend on the processing

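In the comparisons of cabergoline-treated with untreated mice at 1 day and 60 days, of both 60-day groups with nulliparous mice, and for the interaction, 0 histone genes were called under any alternative run. The changes with time depended on the scale. For 60 days against 1 day in untreated mice, where 0 histone genes were higher and 1 lower, TPM as deposited gave 16 and 0, library quality weights 18 and 10, quantile normalization 2 lower, a fit of all 5 groups 1 and 4, and the replicate block 0 lower. Leaving out single libraries gave 1 to 7 lower. In cabergoline-treated mice, where 0 were higher and 8 lower, TPM as deposited gave 19 and 1, library quality weights 5 higher, the fit of all 5 groups 1 higher and a pseudocount of 0.1 gave 5 lower. Leaving out single libraries gave 0 to 2 higher (1 without cabergoline-treated library 4 at 60 days, 2 without library 5 at 1 day) and 5 to 9 lower. The shares of all genes called in these runs are not given, so the counts are not shown to be particular to histones. With TPM as deposited, Hist1h4n in untreated mice had a log2 fold change of 1.64 and Hist1h4d in cabergoline-treated mice 0.19, both reversed, while all genes had medians of 1.61 and 1.42. The cause of the other shifts was not tested. Replicate numbers are shared by the groups, and no pairing by number was seen: of 30 same-numbered pairs, 10 had a correlation of deviations above 0.1 (range -0.78 to 0.65). Handling shared by replicate number was not tested. Hist1h4c in untreated mice had a limma adjusted p of 0.0818 with the block. Depth is unknown, and listed zeros may be failed estimates.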

Other observations

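Ratios of one histone gene to another within a library do not depend on scaling between libraries. The ratio of Hist1h4c to Hist2h4, H4 genes on different chromosomes, was chosen after its values were seen. It ranged from 0 to 0.0598 in cabergoline-treated mice at 60 days against 0.551 to 1.19 at 1 day, and from 0.0331 to 0.118 in untreated mice at 60 days against 0.597 to 1.52 at 1 day. In nulliparous libraries it ranged from 0.00905 to 0.0498. Of 1221 pairs of histone genes, 106 (8.68%) had ratios that did not overlap between 60 days and 1 day in either treatment. The share among pairs of other genes was not computed, so 8.68% is not shown to be high or low. These are descriptions, and no test was made.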
